A study of Caenorhabditis elegans with 104 samples.

Results

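A set of 13 worms aged 4 days, profiled singly beside 91 older Caenorhabditis elegans, was compared worm by worm to find which genes differed most and least between individuals and which variable genes moved together. All 13 were taken because the deposited labels give their age as 4 days. They were wild-type N2 worms, the standard laboratory strain, with no treatment, raised at 20 °C with OP50 bacteria from 1 timed egg lay of 2 hours, and their age is the youngest of the 7 in the series. The 91 older worms, from the same cohort at 8, 12, 14, 16, 20 and 24 days, serve here as context only. RNA of each whole worm was amplified in 2 rounds, labelled with Cy5 and hybridised to 1 array against a Cy3-labelled pool of 15 other worms aged 4 days. Every value below is therefore a log ratio of 1 worm to that pool, read as log2, and 0 means the level of the pool.

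Worms of a self-fertilising strain are close to genetically identical, yet siblings kept on the same plates differ in behaviour, reproduction and lifespan. The adult intestine makes yolk proteins for the oocytes, digestive proteases and lysozymes. The uterus and the pharynx secrete small proteins of their own, and ribosomal proteins are made in step with one another in growing cells. In a whole worm, fewer cells of a tissue and less RNA per cell of that tissue cannot be told apart. Each worm also has 1 array only, so a difference between worms cannot be told apart from a difference between extractions, amplifications or hybridisations of single worms, and p-values measure the spread between these 13.

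Worms are numbered 1 to 13 in the order of their sample records. The arrays of worms 9 and 13 stood apart: their mean correlation with the other day 4 worms over all genes was 0.0580 and 0.0403, against 0.104 to 0.190 for the other 11 worms. Over all pairs of worms that correlation across genes ranged from -0.0201 to 0.327 with a median of 0.0988. The highest was between worms 2 and 8. Results that rest on worms 9 and 13 are given with and without them. No tissue marker could be checked as present or absent, because a ratio to a pool of the same age gives no level.

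Of 18889 genes, 18887 had a value in at least 10 worms. Their SD over worms had a median of 0.833, with quartiles of 0.621 and 1.12 and a range of 0.159 to 3.71. An SD of at least 1 was found for 6438 genes (34.1%), an SD of at least 2 for 282 genes, and an SD under 0.5 for 2327 genes (12.3%). Standard errors of an SD given below assume normally distributed values. The number of probes moved with the SD: the median was 0.873 for the 16759 genes with 1 probe, 0.664 for the 1251 genes with 2 probes and 0.523 for the 877 genes with at least 3. None of the 300 most variable genes had several probes (0 of 300), against 107 of the 300 least variable (35.7%) and 11.3% of all genes. Probes of a gene were averaged before the SD was taken, and they correlated weakly over worms (median r 0.0902). Averaging such probes lowers an SD by itself, so SDs of genes with different numbers of probes are not directly comparable. How much of the difference comes from this was not tested.

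Single worms carried many of the highest SDs. In 2356 genes (12.5%) at least 50% of the sum of squared deviations came from 1 worm. This held for 59 of the 100 genes with the highest SD and for 152 of the top 300. When the farthest worm of each gene was left out, the median SD was 0.679 and 3142 genes (16.6%) had an SD of at least 1. That ranking was chosen after seeing the data. At the edge of the top 300, the last gene inside and the first outside both had an SD of 1.979.

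**Figure D1:**
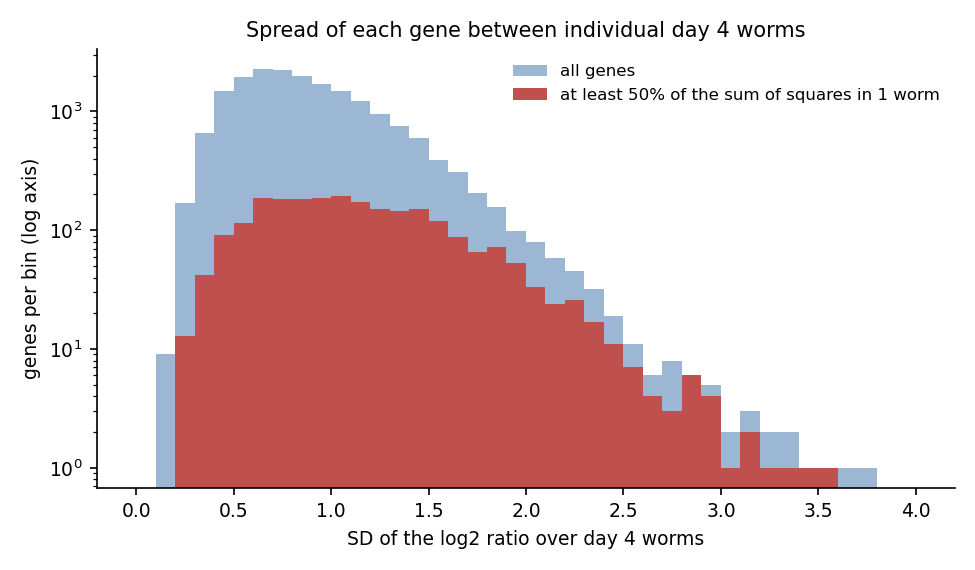
The number of genes (log axis) in each bin of the between-worm SD (log2 ratio), for all 18887 genes in blue and for the 2356 genes with at least 50% of their squared deviations in 1 worm in red. The red share grows to the right, where 152 of the 300 most variable genes lie in it.

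The 4 named genes with the highest SD were members of 1 family of nematode-specific peptides. nspc-9 had a lowest value of -5.88, a median of -1.35 and a highest of 4.65 (SD 3.60 ± 0.74, SE, n = 13). It stood at 4.39, 4.65, 3.22 and 3.58 in worms 4, 5, 6 and 12 and at -0.35 or below in each of the other 9 worms. nspc-14 (-5.67, -1.53 and 4.35, SD 3.36), nspc-16 (-4.61, -1.22 and 4.53, SD 3.21) and nspc-18 (-5.07, -1.32 and 4.12, SD 3.13) were highest in the same 4 worms. Worms 9 and 13 held the 2 lowest values of all 4 genes, and with any 1 worm left out the SD of nspc-9 lay between 3.36 and 3.76. The nspc genes are near-identical copies, so their probes may read one another's RNA and the single values are uncertain.

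The next 8 named genes differed mostly through 1 or 2 worms. snt-7, of the synaptotagmin family of vesicle proteins, stood at -9.98 in worm 13 and between -1.79 and 3.15 in the other 12. Its SD of 3.12 was 1.31 without worm 13. srb-17, a chemoreceptor gene, stood at -10.93 in worm 7 and nowhere above the 1.42 of worm 1, and its SD of 3.09 was 0.93 without worm 7. xtr-1 stood at -10.41 in worm 1 (SD 2.95), and 1.31 was its SD without that worm. Values in the other direction occurred as well. pei-2, of a sperm granule involved in paternal inheritance, reached 9.50 in worm 9, dsb-3, needed to form meiotic DNA breaks, reached 9.04 in worm 7, and hpa-1 reached 8.86 in worm 13. sra-24, another chemoreceptor gene, was low in worm 1 (-7.48) and worm 13 (-7.55). fbxa-202, of an F-box family that marks proteins for degradation, stood at 6.01 in worm 3 and -6.77 in worm 13, with no value in worm 12. Without their farthest worm, the SDs of these 8 genes were between 0.93 and 2.45.

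The named genes with the lowest SD, of which 8 are given here, lay within about 1 log2 unit of the pool in every worm. vab-3, the Pax6 homologue that patterns the head, ranged from 0.03 to 0.56 with a median of 0.23 (SD 0.16 ± 0.03, SE, n = 13). The potassium channel gene twk-17, pde-12, sec-12, which starts vesicle budding at the endoplasmic reticulum, the transcription factor gene cebp-2, ugt-37, the ephrin gene efn-2 and the kinase activator gene mob-2 followed, with SDs of 0.18 to 0.21. A low SD of a log ratio can also come from a dim probe, and intensities were not used here.

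**Figure D2:**
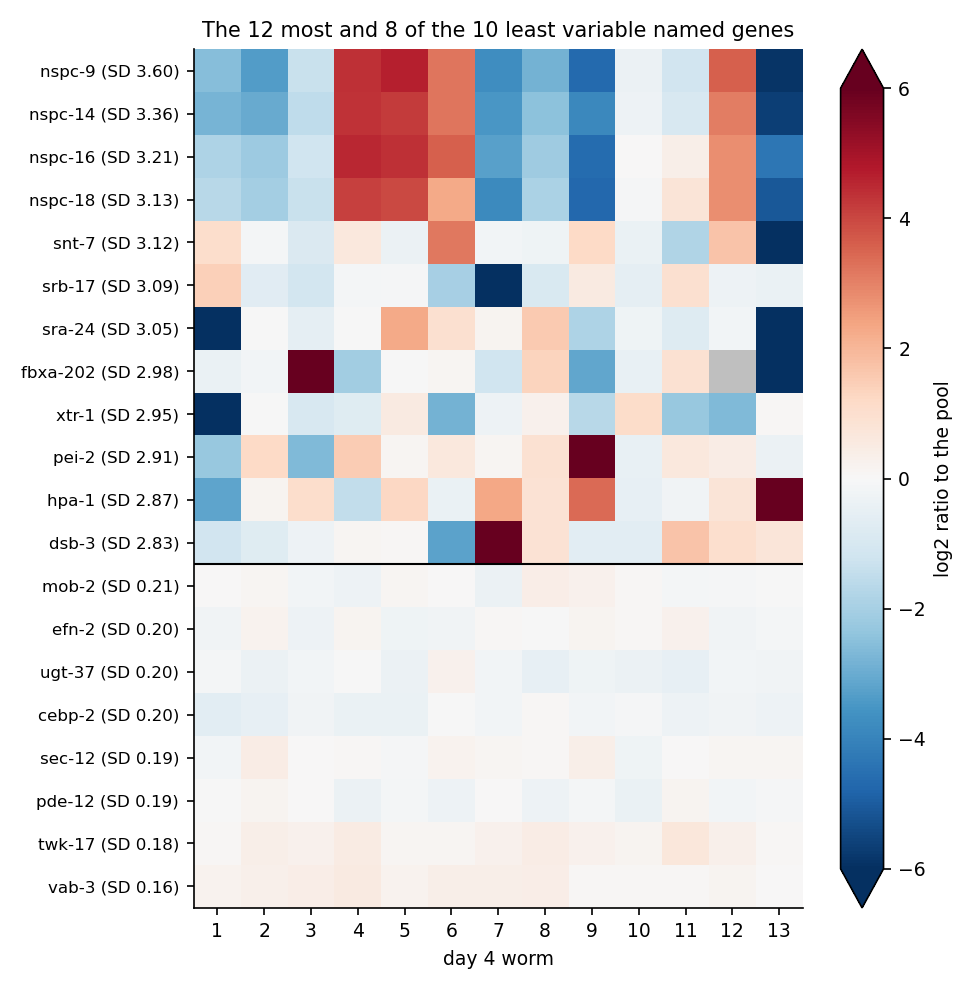
Log2 ratio to the pool (colour, limited to -6 and 6, grey for a missing value) of the 12 named genes of highest SD and, under the line, 8 of the 10 of lowest SD, in each day 4 worm. The 4 nspc rows share 1 pattern with worms 4, 5, 6 and 12 high, while most of the other 8 rows have 1 or 2 extreme worms.

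Genes with several probes allowed the spread between worms to be set against the disagreement of the probes within a worm. An F test of worm against worm by probe called 161 of 1970 such genes (8.17%) at a Benjamini-Hochberg adjusted p under 0.05, and 370 had an unadjusted p under 0.05. The share called was 2.57% of genes with an SD under 0.5, 9.80% of those with an SD of 0.5 to 1 and 21.4% of those with an SD of at least 1. The spread over worms that gives this SD is also the numerator of F, so a share that rises with the SD is partly built in. Over worms, the median correlation between probes of a gene was 0.0902, and 0.780 among the called genes. Whether probes of a gene overlap in sequence was not tested.

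The 5 called named genes with the highest SD were nrde-4, rpl-10a, lys-4, cpr-6 and lys-5. nrde-4, of the nuclear RNA interference pathway, had a lowest value of -3.19 in worm 9 and a median of -1.33, worm 12 lay above the 1.74 of worm 2, and its probes correlated at 0.97 (F test, adjusted p 2.36e-06). Worm 6 was the next lowest, at -2.72. The lysozyme gene lys-4 ranged from -4.11 to 1.76 and lys-5 from -3.09 to 1.44. The cathepsin B-like protease gene cpr-6 ranged from -3.52 to 1.15. All 3 of these intestinal genes had their 2 lowest values in worms 1 and 2. rpl-10a, a ribosomal protein gene, ranged from -2.21 in worm 5 to 3.07 in worm 8. By contrast ssl-1, a chromatin remodelling ATPase, had an SD of 1.46 and was not called (adjusted p 0.847). One of its probes stood at 8.50 in worm 3 and the other spanned -1.52 to 1.54. clec-11 (SD 1.40, adjusted p 0.318) and vet-2 (SD 1.29, adjusted p 0.610) were not called either.

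Among the 300 genes of highest SD with a value in all 13 worms, average-linkage clustering on Pearson's r, parted at a mean r of 0.5, gave 13 groups of at least 8 genes, with 213 genes. Since the groups were formed on these worms, their correlation at day 4 is a description. The same genes were then read in the 91 later worms, as deviations from the mean of each age, which the grouping had not used. In 10 of the 13 groups the mean r between genes in the later worms was between -0.02 and 0.05. Each of these 10 groups was set by 1 worm, 7 of them low and 3 high there, in 8 different worms. The group's mean in that worm was 5.41 to 6.87 log2 units from 0, and without it the mean r at day 4 fell to between -0.01 and 0.12. The group led by the chemoreceptor gene srbc-34 (31 genes), for example, stood at -6.39 in worm 9 and between -0.51 and 0.36 in the other 12. The snt-7 group (29 genes) stood at -6.46 in worm 13, against -0.96 to 0.41 elsewhere. Chemoreceptor genes made up 31 of the 160 genes in these 10 groups (19.4%), against 7.31% of all genes. The groups were drawn from genes of high SD, and among the 300 genes with the highest SD the share was already 15%.

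The remaining 3 groups kept a mean r of at least 0.1 in the later worms. They were led by ule-3 (21 genes, mean r 0.85 in day 4 worms and 0.54 in later worms), by nspc-9 (22 genes, 0.66 and 0.23) and by spex-3 (10 genes, 0.59 and 0.20). In every alternative grouping ule-3 and nspc-9 were in a group. The spex-3 group's members ule-4 and rpl-29 were in none with 150 genes, with a parting at 0.6 or with Spearman's rho. Nor were they with the first principal component removed or without worms 9 and 13. Ranking the genes without each gene's farthest worm, an alternative chosen after seeing the data, gave 6 groups from 300 genes, of which 4 kept a mean r of at least 0.1. These were a group led by each of the same 3 genes and a group led by rpl-29, with mostly ribosomal protein genes. The new ule-3 group (30 genes) shared 18 genes with the first one, the new nspc-9 group (21 genes) 15 and the new spex-3 group (18 genes) 8. With 600 genes, 22 groups formed and 6 kept a mean r of at least 0.1. The rpl-29 group was then no longer separate: 12 of its 16 genes joined the spex-3 group, which grew to 49 genes (mean r 0.24 in later worms). Groups led by sysm-1, npr-27 and nspe-7 were also kept with 600 genes. An nspe-7 group of 12 genes had already formed with 300 genes, with a mean r of 0.06 in later worms. It shared 3 genes with the 600-gene one. The numbers that follow are for the groups of the 300-gene ranking without the farthest worm. For the sysm-1, npr-27 and nspe-7 groups they are those of the 600-gene ranking.

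**Figure D3:**
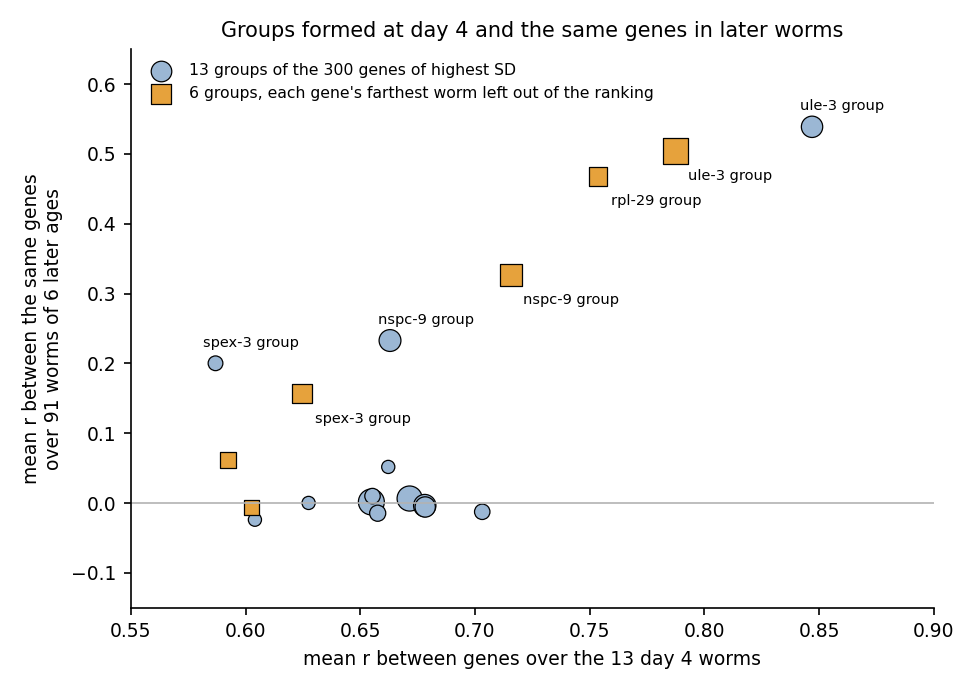
Each symbol is a group of genes formed on day 4 worms, with the mean pairwise r of its genes over the 13 day 4 worms on the x axis and over the 91 later worms on the y axis; symbol area is proportional to the number of genes. Of the 13 circles 10 lie near 0 on the y axis, and the named groups lie at 0.16 or above.

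The ule-3 group held 30 genes, 13 of them with a gene name. ule-3 and ule-5 encode proteins secreted into the uterine lumen, clec-222, clec-190 and clec-223 are C-type lectin genes of the kind that bind sugars, and stha-3 and sysm-1 belonged to the group too; ule-5 was named after its values were seen. The group's mean was -4.27, -3.50, -3.60 and -2.58 in worms 1, 2, 7 and 8, and between -0.72 and 1.54 in the other 9 worms. These 4 worms were picked from the same values, so the gap between the 2 sets is a description. ule-3 itself stood at -5.77, -4.76, -5.27 and -4.44 in those 4 worms and between -2.96 and 1.00 in the others. clec-222 stood at -4.39, -4.02, -4.07 and -3.49 there, against -0.49 to 1.84 elsewhere. The mean r between the group's genes was 0.79 over the day 4 worms, 0.81 without worms 9 and 13, 0.55 over the 17 worms of day 8 and 0.50 over all 91 later worms. In the later worms 28 of the 30 genes had an r of at least 0.3 with the rest of the group, against 11.3% of the 17600 genes outside it. For context, the group's mean over worms was -0.93 at day 4, then -1.35, -2.30, -2.12, -2.11, -2.44 and -2.39 at days 8, 12, 14, 16, 20 and 24. In the RefSeq gene order, 8 of the 30 genes lie next to another member.

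A further 37 genes outside the group followed its mean at day 4 with an r of at least 0.8. Their median r with the group in the 91 later worms was 0.41, against 0.0227 over all 17600 genes outside it. An r of -0.8 or below at day 4 was found for 8 genes outside it.

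The nspc-9 group held 21 genes, 16 of them named, among them nspc-9, nspc-14, nspc-16, nspc-18, nspc-10 and nspc-15. Since probes of the nspc genes may read one another's RNA, these may not be separate genes moving together. Its mean was 3.05, 3.40 and 2.79 in worms 4, 5 and 12, then 0.70 in worm 6, and between -1.67 and -0.38 in 7 worms. Worms 9 and 13 were lowest, at -3.01 and -2.47. The mean r was 0.72 over the day 4 worms, 0.69 without worms 9 and 13, and 0.33 over the 91 later worms, where 17 of the 21 genes had an r of at least 0.3 with the rest, against 3.06% of the genes outside. At day 4, 73 outside genes had an r of -0.8 or below with the group's mean, with a median r of -0.16 in later worms. Of 45 outside genes with an r of at least 0.8 at day 4, the median r in later worms was 0.23, against -0.00263 over all genes outside. They included the pharyngeal myosin genes myo-1 and myo-2, with r of 0.88 and 0.83 at day 4 and 0.64 and 0.58 in the later worms; both were named after their values were seen. myo-1 stood at 1.93, 1.94 and 3.14 in worms 4, 5 and 12 and between -1.46 and 0.37 in the others. The list of 33 pharynx genes as a whole showed no such pattern, with an SD of its mean of 0.162 over worms and a mean r between its genes of 0.00166.

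The spex-3 group held 18 genes, 6 of them named: spex-3, ule-4, whose product is found in the uterus, the phospholipase gene ipla-5, the acyltransferase gene oac-47, sri-35 and the saposin-like gene spp-3. It was set largely by worms 9 and 13, at -3.40 and -3.11, against -0.94 to 1.87 in the other 11. Its mean r of 0.62 at day 4 was 0.31 without worms 9 and 13, and 0.16 in the 91 later worms. ule-4 was also low in worm 4 (-2.62) and high in worms 1, 7, 8 and 10 (2.03, 2.09, 1.69 and 2.37).

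The rpl-29 group held 16 genes, of which 11 are ribosomal protein genes by name, among them rpl-29, rpl-36A, rps-21, rpl-34, rpl-28 and rps-18. The other 5 included its member of highest SD, known by its sequence name only. Its mean was 1.45, 2.33, 1.51, 2.44, 1.35 and 2.24 in worms 2, 3, 7, 8, 10 and 11, and between -1.57 and 0.16 in the other 7. The first 6 worms were picked from these same values. rpl-29 stood at 3.43, 1.70, 2.22, 4.41, 2.75 and 3.50 in the first 6, against -1.55 to 0.73 in the rest. The mean r was 0.75 over the day 4 worms, 0.70 without worms 9 and 13, and 0.47 over the later worms. Another 217 genes followed it with an r of at least 0.8, more than for the groups above. Their median r in later worms was 0.44, against 0.00189 over all genes outside. An r of -0.8 or below at day 4 was found for 171 genes, with a median r of -0.32 in later worms.

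The list of 64 cytosolic ribosomal protein genes, which leaves out names ending in a letter such as rpl-36A, varied in the same worms. Its median SD was 1.35, against 0.833 over all genes, and 55 of the 64 had an SD of at least 1 (85.9%, against 34.1% of all genes). The list's mean was lowest in worm 5, below the -0.59 of worm 13, had a median of -0.02 and was highest in worm 8 (2.83), with an SD of 1.18 over worms. The mean r between its genes was 0.77 at day 4 and 0.61 in the later worms. By contrast the 28 translation factor genes, whose products work with the ribosome, had an SD of their mean of 0.256 and a mean r of 0.0481.

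The sysm-1 group, from the 600-gene ranking, held 22 genes, 16 of them named. They included elo-5, a fatty acid elongase gene, dod-3 and pud-2.1, which respond to insulin signalling, and the saposin-like gene spp-5. Its mean was -3.07 and -2.13 in worms 1 and 2, 2.04 in worm 10 and between -1.13 and 1.19 in the other 10. The mean r was 0.65 over the day 4 worms, 0.70 without worms 9 and 13, and 0.35 over the later worms. Of 164 outside genes that followed it at 0.8 or more, the median r in the later worms was 0.55, against -0.000209 over all genes outside. An r of -0.8 or below at day 4 was found for 11 outside genes. sysm-1 (2.77 in worm 10 and 4.52 in worm 5) was lowest in worm 7 (-2.94) and worm 1 (-2.74). The sysm-1 and ule-3 groups come from different rankings and share 6 genes, 27.3% of the first and 20% of the second, among them sysm-1 and elo-5. Both were low in worms 1 and 2. In worms 7 and 8 the ule-3 group was low, while the sysm-1 group stood at -0.54 and 0.74.

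The npr-27 group held 10 genes, 8 of them named, and several act in neurons: npr-27, a neuropeptide receptor gene, the glutamate receptor gene glr-1, cng-1 of the cyclic nucleotide-gated channel family and syd-1, which organises synapses. Its mean was lowest in worms 3 and 10, at -2.40 and -2.08, and highest in worms 5, 4 and 12, at 2.29, 1.76 and 1.76. The mean r was 0.61 over the day 4 worms, 0.66 without worms 9 and 13, and 0.16 over the later worms. In the later worms 4 of the 10 genes had an r of at least 0.3 with the rest, against 11.7% of the genes outside. The list of 40 neuron genes as a whole did not move together, with a mean r of 0.0067 and an SD of its mean of 0.170. The nspe-7 group held 8 genes and was lowest in worms 9 and 13 (-2.49 and -2.37) and highest in worm 1 (1.99). Its mean r was 0.68 over the day 4 worms, 0.61 without worms 9 and 13, -0.03 over the day 8 worms and 0.13 over all later worms. Of 27 outside genes that followed it at 0.8 or more, 3 had an r of at least 0.3 in the later worms. That is 11.1%, near the 10.3% of all genes outside. A further 32 outside genes had an r of -0.8 or below with this group at day 4.

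**Figure D4:**
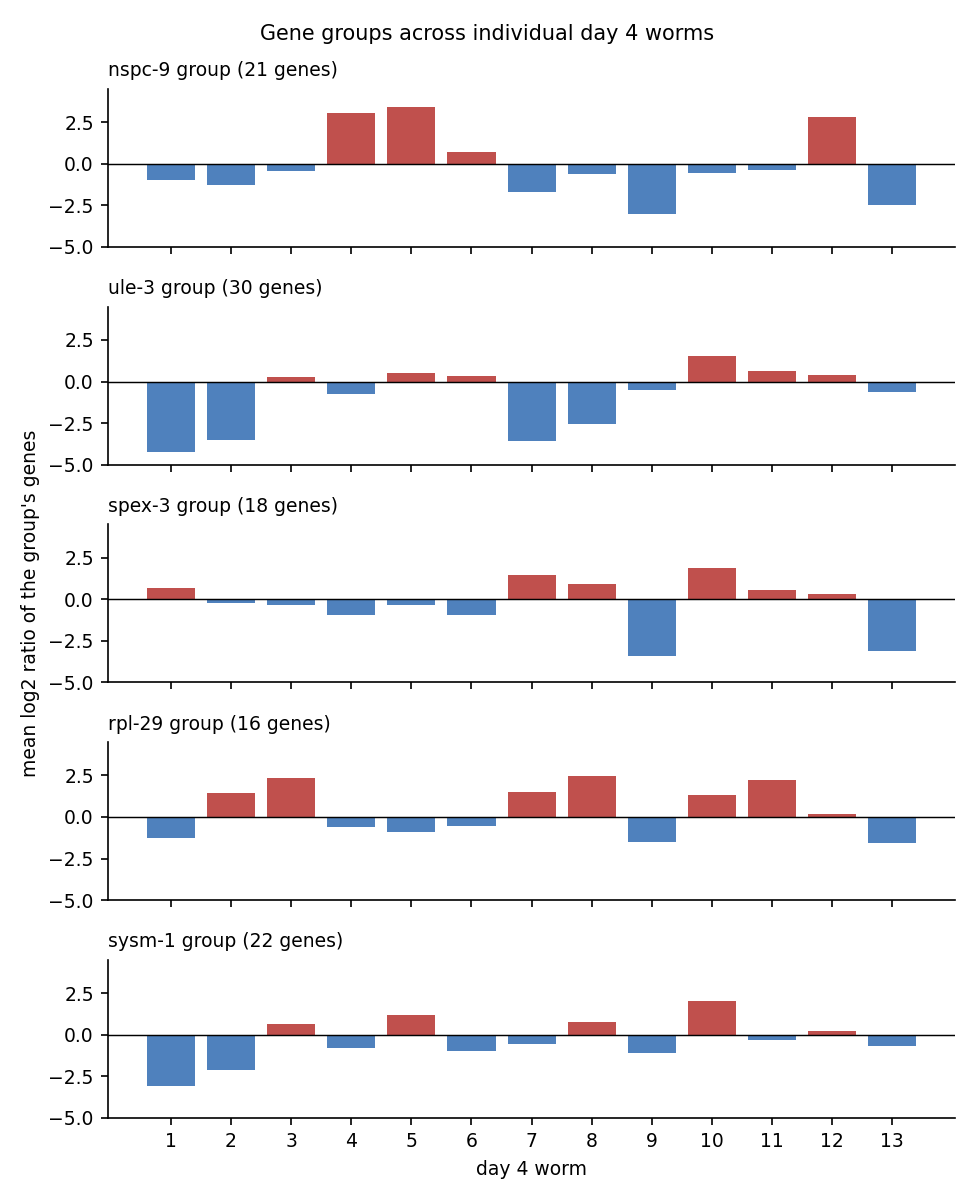
Mean log2 ratio to the pool of 5 gene groups in each of the 13 day 4 worms, 1 panel per group, bars above 0 in red and below 0 in blue. Worms 4, 5 and 12 stand out in the nspc-9 group and worms 1, 2, 7 and 8 in the ule-3 group. Worms 9 and 13 stand out in the spex-3 group, and worms 1 and 2 are lowest in the sysm-1 group.

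Lists of genes for tissues and processes were described by their spread alone. Of 43 lists, 9 had an SD of the list's mean over worms of at least 0.5. That SD also depends on the number of genes averaged, so it does not rank lists of different length by spread alone. The 15 intestinal protease genes had a median SD of 1.39, and 13 of them an SD of at least 1. Their mean was -2.81 and -2.79 in worms 1 and 2, had a median of -0.73 over worms and was highest in worm 10 (1.09). asp-1, an aspartyl protease gene, stood at -3.37 and -2.87 in worms 1 and 2, against -0.95 to 2.26 in the other 11. cpr-1, a cathepsin B-like gene, stood at -3.03 and -3.53 there, against -1.46 to 2.25. In asp-1 and cpr-1 the 2 worms thus lay below all the others.

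The other lists with intestinal products described here were lowest in worm 1 or 2. The 20 lipase and fat transport genes were not, with their lowest mean in worm 9 (-0.76). The 31 intestine markers, which share genes with the protease list, had a mean of -2.36 in worm 1 and -1.79 in worm 2 and of 1.22 in worm 10. The 16 lysozyme genes had a mean of -1.78 in worm 1, -1.67 in worm 2 and 0.82 in worm 10, and 11 of them had an SD of at least 1. The 6 vitellogenin genes, for yolk, had a mean of -1.52 and -1.58 in worms 1 and 2 and between -0.74 and 1.15 in the others, with worm 7 highest. vit-1, vit-6, vit-2 and vit-5 had SDs of 1.46, 1.32, 1.19 and 1.09, while vit-3 and vit-4 had 0.53 and 0.46. The 13 dod and pud genes had a mean of -1.76 in worm 1 and 1.96 in worm 10, and 10 of them had an SD of at least 1. The 16 fatty acid desaturase and elongase genes ranged from -1.44 in worm 2 to 0.81 in worm 10.

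Several lists of other tissues and processes had lower SDs. The 31 proteasome genes had a median SD of 0.564 and 1 had an SD of at least 1, while 13 had an SD under 0.5 (41.9%, against 12.3% of all genes). The 25 glycolysis and glyoxylate cycle genes had a median SD of 0.593 and none reached 1 (0 of 25). The 32 genes of germline proliferation and meiosis had a median SD of 0.619, and their mean ranged from -0.28 to 0.20. The 40 body wall muscle genes had a median SD of 0.720 and the 40 neuron genes one of 0.623. The 31 oocyte and eggshell genes had a mean of -1.44 in worm 8 and -0.90 in worm 10, and between -0.51 and 0.29 in the others. The 49 transthyretin-related genes and the 45 neuropeptide genes had high median SDs, at 1.15 and 1.08. The neuropeptide genes had a mean of 1.41 in worm 5, above the -0.32 to 0.61 of the other worms. The 27 histone genes had a median SD of 0.839 and an SD of their mean of 0.582, and were lowest in worms 4 and 5 (-0.69 and -0.66) and highest in worm 8 (1.08).

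Of the heat shock genes, hsp-16.2, a small chaperone, stood far above the pool in every worm, with a lowest value of 4.98, a median of 6.52 and a highest of 10.18 (SD 1.30). The highest was in worm 13 and the next, 8.05, in worm 9. Without these 2 worms the SD of hsp-16.2 was 0.68. hsp-16.41 ranged from 4.80 to 7.53 (SD 0.92). The other small heat shock genes named here, sip-1 and hsp-12.1, had medians of 0.66 and 0.11.

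Chemoreceptor genes were frequent among the most variable genes but shared no pattern. Of 1380 measured, 717 had an SD of at least 1 (52.0%, against 34.1%), and 45 were among the 300 with the highest SD (15% against 7.31% of all genes). The mean r between them was 0.00582 and the SD of their mean over worms was 0.0918. The 229 C-type lectin genes had a median SD of 1.08 and a mean r of 0.0151, so the lectin genes of the ule-3 group moved with that group and the list as a whole did not move together.

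**Figure D5:**
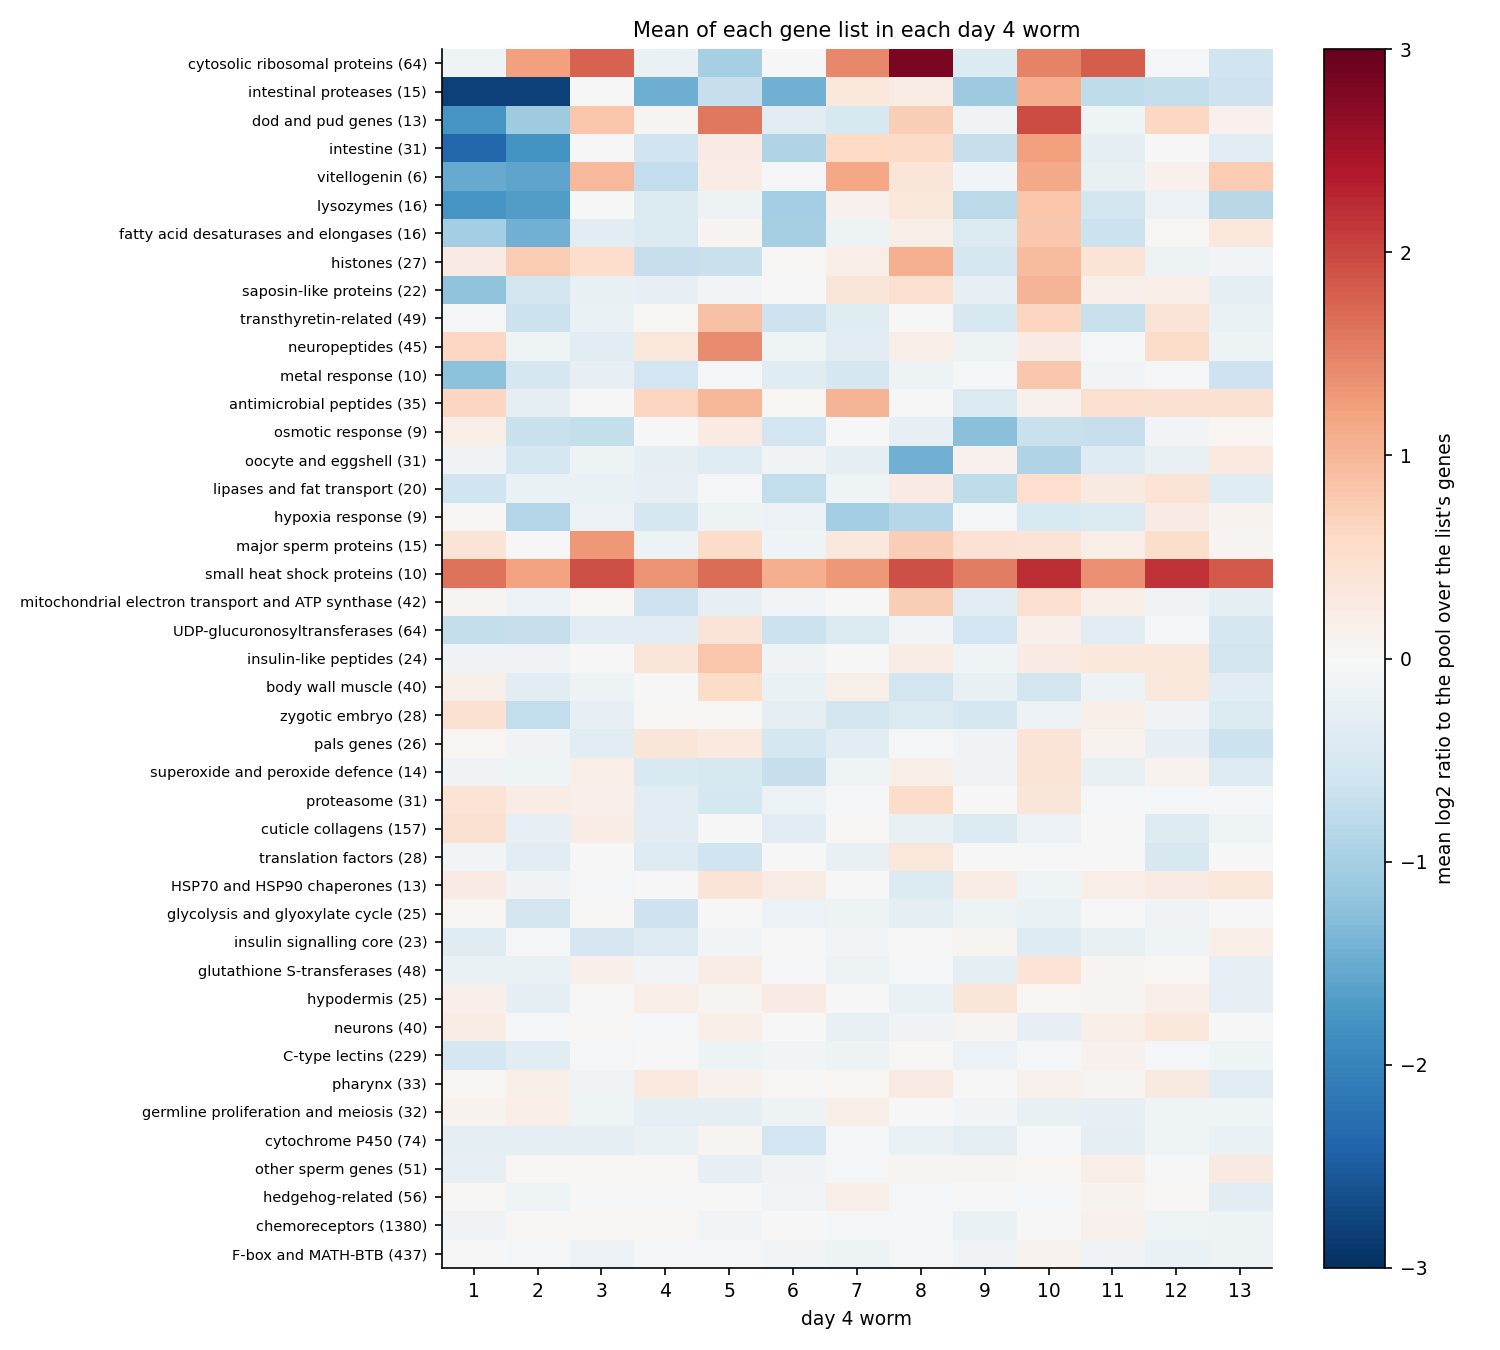
Mean log2 ratio to the pool (colour) of 43 gene lists, with the number of genes of each in parentheses, in each of the 13 day 4 worms, sorted by the SD of the list's mean. Ribosomal proteins (SD 1.18) and several lists of intestinal products head the order, with worms 1 and 2 low in these intestinal lists. Chemoreceptors and F-box genes, the longest lists (1380 and 437 genes), end it. The SD of a mean also falls with the number of genes averaged.

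For 38 pairs of genes, chosen for known roles in 1 tissue or response with earlier results of these data known, the correlation over the 13 worms was tested by permutation (100000 resamples, two-sided). Of 37 measured pairs, 15 had an adjusted p under 0.05, with Benjamini-Hochberg adjustment over the 37, and 17 had an unadjusted p under 0.05. In the 91 later worms, with permutation within each age, 26 pairs were called, among them 14 of the 15, with the same sign. The highest was cpr-1 with asp-3, both intestinal protease genes (Pearson's r 0.97, Spearman's rho 0.91, permutation p 1e-05, the smallest these resamples can give, adjusted p 0.000247). Without the 2 worms farthest from the median of cpr-1 it was 0.94, and in the later worms 0.78.

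Yolk genes moved together: vit-2 correlated with vit-6 at r 0.95 (rho 0.90, permutation p 2e-05, 0.89 without the 2 farthest worms) and with vit-5 at 0.91. Whether probes of related genes, such as the vit or hsp-16 genes, read one another's RNA could not be checked here. A correlation within such a family may therefore not be one of separate RNAs. The ribosomal pair rpl-5 and rps-3 had an r of 0.91 (rho 0.88, permutation p 0.00014, 0.88 without the 2 farthest worms), the collagen pair col-8 and col-120 one of 0.91, the saposin-like pair spp-1 and spp-5 one of 0.89, and pud-2.1 with pud-4 one of 0.87. Across functions, vit-2 with cpr-1 had an r of 0.88 (rho 0.85, permutation p 1e-04), which was 0.70 without worms 1 and 2, the farthest on vit-2 (adjusted p 0.0719), and 0.50 in the later worms. vit-2 with vit-1 (0.87), the metallothionein pair mtl-1 and mtl-2 (0.82), the desaturase pair fat-7 and fat-6 (0.81), the myosin pair unc-54 and myo-3 (0.74) and the oocyte pair puf-5 and cbd-1 (0.73) were called too. Of these 5, only fat-7 with fat-6 was still called without the 2 farthest worms (adjusted p 0.0381, and 0.103, 0.0974, 0.0719 and 0.144 for the other pairs in the order given). puf-5 with cbd-1 also lost its call without worms 9 and 13 (r 0.62, adjusted p 0.105) and with the first principal component removed (adjusted p 0.161). fat-7 with vit-2 (r 0.77) had an r of 0.40 without worms 1 and 2 (adjusted p 0.378), so it rests on them.

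One called pair was negative. rpl-5 against unc-54, the main body wall myosin gene, had an r of -0.65 (rho -0.67, permutation p 0.0161, adjusted p 0.0396), which was -0.53 without the 2 farthest worms (adjusted p 0.223) and -0.54 with the first principal component removed (adjusted p 0.127). It was not called in the later worms (r 0.08); the difference was not tested. hsp-16.2 with hsp-16.41 had an r of 0.45 at day 4 (permutation p 0.119), 0.24 without worms 9 and 13, and 0.69 in the later worms, where it was called. puf-5 with rme-2, the yolk receptor gene of oocytes, had an r of 0.14 at day 4 (permutation p 0.651), -0.17 without the 2 farthest worms, and 0.69 in the later worms.

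For context, the median SD over all genes was 0.833 at day 4, then 0.780, 0.741, 0.721, 0.736, 0.688 and 0.659 at days 8, 12, 14, 16, 20 and 24. Across genes, the SD at day 4 correlated with that at day 8 with a Spearman's rho of 0.668. Absolute deviations from the mean of each age were compared between day 4 and the 6 later ages with limma over all 18887 genes. The spread was larger at day 4 in 1650 genes (8.74%) and smaller in 30 (0.159%) at an adjusted p under 0.05. On simulated data this test called more genes wrongly than that threshold allows, so both counts may be too high. Over all genes the median difference was 0.0917. The day 4 arrays had nearly 1 common spread over probes (median absolute deviation 0.579 to 0.591), and that of the later arrays is not given here. Were it the same, a wider gap between a later age's mean and the pool would leave less room for spread between its worms. This was not tested.

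Ribosomal protein genes were again prominent: 52 of 64 varied more at day 4 (81.3%, against 8.74% of all genes) and 0 of 64 less. These genes moved together over the same worms (mean r 0.77 at day 4), so the 64 calls are not independent of one another. Without worm 8, the highest in this list, 33 of 64 were called, against 7.11% of all genes, and without worms 9 and 13 it was 46 of 64. With deviations from age medians 37 of 64 were called (4.17% of all genes), and with log2 deviations 23 of 64 (1.68% of all genes). Of named genes with the largest increases, nspc-15 deviated by 2.30 on average at day 4 and by 0.95 at the later ages (difference 1.35 ± 0.26, SE, limma adjusted p 0.000265). npr-27, a neuropeptide receptor gene, deviated by 2.08 at day 4 and by 0.82 later (difference 1.27 ± 0.27, SE, limma adjusted p 0.000716). nspc-14, nspc-9 and sra-24 followed the same direction. For nspc-9 the call was lost without worm 4 or worm 5 (adjusted p 0.0568 and 0.0633), and for sra-24 without worm 1 or worm 13 (0.225 and 0.247). With log2 deviations the calls of nspc-14 and nspc-9 were lost (adjusted p 0.0564 and 0.137), and with age medians that of sra-24 (0.0956).

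The named genes with the largest decreases in spread were cpr-2, a cathepsin B-like gene, sqt-3, a cuticle collagen gene, the lysozyme gene ilys-3, ttc-36 and ddn-1. sqt-3 ranged from -0.83 to 1.07 over the day 4 worms, against -2.99 to 5.04 at day 8 (mean deviation 0.47 at day 4, difference from the later ages -1.01 ± 0.32, SE, limma adjusted p 0.0299, and 0.0501 without worm 5). All 5 calls were lost with deviations from the median of each age, and those of cpr-2 and ilys-3 also without worms 9 and 13 (adjusted p 0.0802 and 0.0747). With 1 worm left out, cpr-2 lost its call without worm 4, 5, 7, 11 or 13. The call of ilys-3 was kept only without worm 1, 2 or 9, and was lost with log2 deviations (limma adjusted p 0.0636).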

How the data were processed

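The authors deposited 1 log2 ratio per probe and array (22490 probes, 104 arrays) in 2 identical tables. That the values are log2 of Cy5 over Cy3 is read from their range and limma's default and is not stated. The submitters' processing notes name limma; how background was corrected and arrays normalized is not given in the sources used here. The day 4 arrays lacked 54 to 354 probe values each; with 1 array per worm, precision rests on the number of arrays. No intensities were used.

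Splice letters were dropped from sequence names, which were matched to RefSeq genes (WBcel235, names and gene order only), and probes of a gene were averaged: 18889 genes, 10823 with a gene name, 7095 with a sequence name only and 971 unmatched. Python 3.11.15 (numpy 2.4.6, scipy 1.17.1) and R 4.3.3 with limma 3.58.1 were used. Test scripts were run first on simulated data.

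Named genes were the 12 highest and 10 lowest SDs, up to 4 per list and 6 per group by SD, the pair genes, 5 called and 3 uncalled genes of the probe test, and 5 per direction of the spread test; 2 of the 10 lowest are not reported here. The worms, gene lists, pairs and tests were chosen with earlier results of these data known. Alternatives were quantile normalization, removal of the first principal component, other measures of spread and grouping, and leaving out worms.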

Additional observations from a re-analysis of the deposited data

How the results depend on the processing

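The count of genes with an SD of at least 1 (6438) lay between 6119 and 6560 with any 1 worm left out, and was 3142 without the farthest worm of each gene. Of the 100 genes with the highest SD, 75 to 94 remained with 1 worm left out, and 23 remained with the median absolute deviation. The probe test called 161 genes, and 137 to 162 with 1 worm left out. Larger spread at day 4 was called in 1343 to 1777 genes and smaller spread in 20 to 31 with 1 worm left out. With deviations from age medians these counts were 788 and 1, with log2 deviations 318 genes were called larger, and without worms 9 and 13 smaller spread was called in 18. Without the 2 farthest worms 9 pairs were called, 8 of the main 15 and 1 other. The 13 groups became 6 with 150 genes, 20 with 600, 4 with Spearman's rho, and 6 and 22 with 300 and 600 genes ranked without the farthest worm, when 6 of the 22 kept a mean r of at least 0.1 in later worms. Some alternatives used fewer worms, or fewer or more genes, and why the counts changed was not tested for any of them. Of 43 lists, 119 of 129 alternative SDs of list means moved by less than their standard error. No called result changed sign; among uncalled pairs, 4 changed sign without the 2 farthest worms, 1 under quantile normalization and 1 with Spearman's rho. No paired analysis was possible because worms of different ages are different individuals and their replicate numbers come only from the order of the records. Signal over background, and so the precision of dim probes, could not be weighed.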
